A study of Mus musculus with 16 samples.

Results

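The 33 genes described here are markers of blood formation, 23 of the red cell lineage and 10 of the platelet (megakaryocyte) lineage. They were taken by symbol from a list drawn up with earlier results of these data known. Their counts beside those of all genes are therefore a description and not a test. Of the 33 genes, 31 had a row among the 18209 named genes of the processed table, 21 of the red cell and 10 of the platelet lineage. *Ahsp* and *Trim58* had none and are not analysed here. Of the 31, 24 reached 10 normalized reads in 4 or more libraries and were tested, 16 of the red cell and 8 of the platelet lineage. The 7 others, *Gata1*, *Rhag*, *Rhd*, *Kel*, *Hemgn*, *Gp6* and *Treml1*, were too low for a test and are given by their reads.

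RNA was sequenced from the livers of 16 mice labelled male, all 20 days old, with 4 mice in each of 4 genotypes. Control mice were Trspfl/fl, with floxed alleles of the selenocysteine tRNA gene and no Cre. Knockout mice were Trspfl/fl::AlbCre, in which Cre under the albumin promoter deletes *Trsp* in hepatocytes, and hence not in blood cells. KEAP1-mutant mice were Keap1C226SC613Shomo::Trspfl/fl, homozygous in the whole body for serine substitutions at a pair of cysteines of KEAP1, the sensor that holds the transcription factor NRF2 in check, so that their blood cells carry the substitutions too. Double-mutant mice were Keap1C226SC613Shomo::Trspfl/fl::AlbCre. The floxed *Trsp* alleles are thus shared by all 4 groups, controls included. The purpose of the study was to learn how far the KEAP1 cysteines matter for NRF2 activity in livers without selenoproteins; the blood lineage genes were not its subject.

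The liver is a site of blood formation in the fetus and keeps islands of erythroid cells for a short time after birth, before the bone marrow and, in mice, the spleen take over. Erythroid precursors make globin and heme, build the spectrin and ankyrin skeleton under the membrane, and then lose their nucleus, while reticulocytes and platelets in the circulation still hold RNA. A whole liver therefore yields red cell and platelet transcripts both from cells that form blood in the tissue and from blood in its vessels. Fewer such cells and less RNA per cell cannot be told apart in bulk RNA, and blood left in the vessels cannot be told apart from blood formed in the liver. Whether the livers were flushed of blood is not given in the sources used here.

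Values are log2 of the normalized count plus 4, as deposited, so a library with 0 reads of a gene stands at 2. Recovered reads per library ranged from 11386707 to 19164133. *Gpx1*, a selenoprotein mRNA that is degraded when selenocysteine cannot be inserted, checked the labels: its log2 value was 13.81 ± 0.50 (SD, n = 4) in control and 13.53 ± 0.29 in KEAP1-mutant livers, and 11.70 ± 0.23 and 11.69 ± 0.17 in knockout and double-mutant livers, with no overlap between livers with and without Cre. The tissue label also held, since the 10 hepatocyte markers tested, of 11 listed, had reads in each library. *Alb* alone took 4.86% to 10.7% of the reads.

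Control replicate 4 and double-mutant replicate 1 stood apart in the genes described here. Control replicate 4 was the highest of its group in 24 of the 31 members, among them all 10 platelet genes, and the highest of all 16 libraries in 17. Double-mutant replicate 1 was the highest of its group in 23 of the 31 and of all libraries in 8. It held 28799 *Xist* reads, against 22 to 50 in the 15 others, and 2 reads over 4 Y-linked genes, against 1830 to 3066, although its label reads male. It had the lowest *Alb* share, 4.86%, and 32965 reads of *Lcn2*, an acute phase and neutrophil gene, which were 202 to 17918 in the other libraries of its group. The part of these features in the results was not tested, and the median differences of the members in each comparison are also given without the library concerned.

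The promoters of the members are described by their letters. GATA1, the factor that drives both the erythroid and the megakaryocyte programme, binds the letters AGATAA or TGATAA, and the RefSeq promoter table (build GRCm38.p6) held at least 1 window of 250 bases before the transcription start for 28 of the 33 members, 29 windows in all. These letters, searched on both strands, were present in 16 of the 29 windows (55.2%), 13 of 20 of the red cell and 3 of 9 of the platelet lineage, against 16.6% of all 32851 windows of this length. The letters CCNCNCCC, a form of the CACCC box bound by KLF1 and related factors, share no stretch with the GATA words and were in 13 of the 29 (44.8%), which is near the 45.9% of all windows. A match is a description of the letters and not a bound site.

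The windows of 5 members whose values are given in full below are printed 5′ to 3′ on the strand of the gene, with matches to the 2 GATA words or their reverse complements in capitals. They show the alpha globin gene *Hba-a1* (chr11:32283422-32283671, plus strand), the adult beta globin gene *Hbb-bs* (chr7:103827929-103828178, minus strand) and its neighbour *Hbb-bt* (chr7:103813924-103814173, minus strand), the heme synthesis gene *Alas2* (chrX:150547167-150547416, plus strand) and the spectrin gene *Sptb* (chr12:76710548-76710797, minus strand).
Hba-a1: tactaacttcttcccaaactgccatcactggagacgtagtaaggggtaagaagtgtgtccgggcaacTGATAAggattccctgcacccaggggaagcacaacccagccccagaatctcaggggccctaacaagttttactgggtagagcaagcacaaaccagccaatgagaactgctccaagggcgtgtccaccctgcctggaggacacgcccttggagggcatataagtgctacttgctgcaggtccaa
Hbb-bs: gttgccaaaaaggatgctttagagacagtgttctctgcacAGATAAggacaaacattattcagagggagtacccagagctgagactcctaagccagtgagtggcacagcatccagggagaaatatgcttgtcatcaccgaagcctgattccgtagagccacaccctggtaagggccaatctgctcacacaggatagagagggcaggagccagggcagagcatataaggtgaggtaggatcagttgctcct
Hbb-bt: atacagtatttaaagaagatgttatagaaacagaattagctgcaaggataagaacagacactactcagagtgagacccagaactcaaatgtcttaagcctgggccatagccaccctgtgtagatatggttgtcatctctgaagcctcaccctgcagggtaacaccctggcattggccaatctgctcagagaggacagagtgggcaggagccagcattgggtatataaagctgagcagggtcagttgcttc
Alas2: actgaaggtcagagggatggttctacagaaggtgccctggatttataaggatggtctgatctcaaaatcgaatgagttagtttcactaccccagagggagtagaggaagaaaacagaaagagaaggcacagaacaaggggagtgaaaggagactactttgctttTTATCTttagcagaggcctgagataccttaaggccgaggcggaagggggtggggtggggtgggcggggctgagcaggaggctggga
Sptb: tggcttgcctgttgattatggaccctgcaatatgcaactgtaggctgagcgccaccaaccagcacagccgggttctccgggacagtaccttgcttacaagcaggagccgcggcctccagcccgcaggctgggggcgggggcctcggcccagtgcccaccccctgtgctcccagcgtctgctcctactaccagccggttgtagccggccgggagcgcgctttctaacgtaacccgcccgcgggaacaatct
The GATA word began 183 bases before the start in *Hba-a1*, 210 in *Hbb-bs* and 86 in *Alas2*, and neither word was in the *Hbb-bt* or *Sptb* window. The window of *Hba-a2* (chr11:32296242-32296491) was the same as that of *Hba-a1* in all 247 bases they share once shifted by 3, while *Hbb-bs* and *Hbb-bt* matched in 127 of 249 at their best shift. For the platelet lineage the window of *Gp1ba* (chr11:70638872-70639121, plus strand), a subunit of the von Willebrand factor receptor, is shown because it held 2 such words.
Gp1ba: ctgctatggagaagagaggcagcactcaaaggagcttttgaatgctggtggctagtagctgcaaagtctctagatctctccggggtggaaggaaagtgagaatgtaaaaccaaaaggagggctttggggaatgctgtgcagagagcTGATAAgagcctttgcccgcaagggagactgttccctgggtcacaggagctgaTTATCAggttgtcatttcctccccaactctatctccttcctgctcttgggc
These began 104 and 51 bases before the start. The transcripts of the paired globin genes are close copies too: of the 31-base words of *Hba-a2* in the GENCODE M21 transcripts, 92.6% also occur in *Hba-a1*, and of those of *Hbb-bt*, 59.4% occur in *Hbb-bs*. How reads were divided between the members of a pair is therefore uncertain, and the pairs are not independent of each other.

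**Figure D1:**
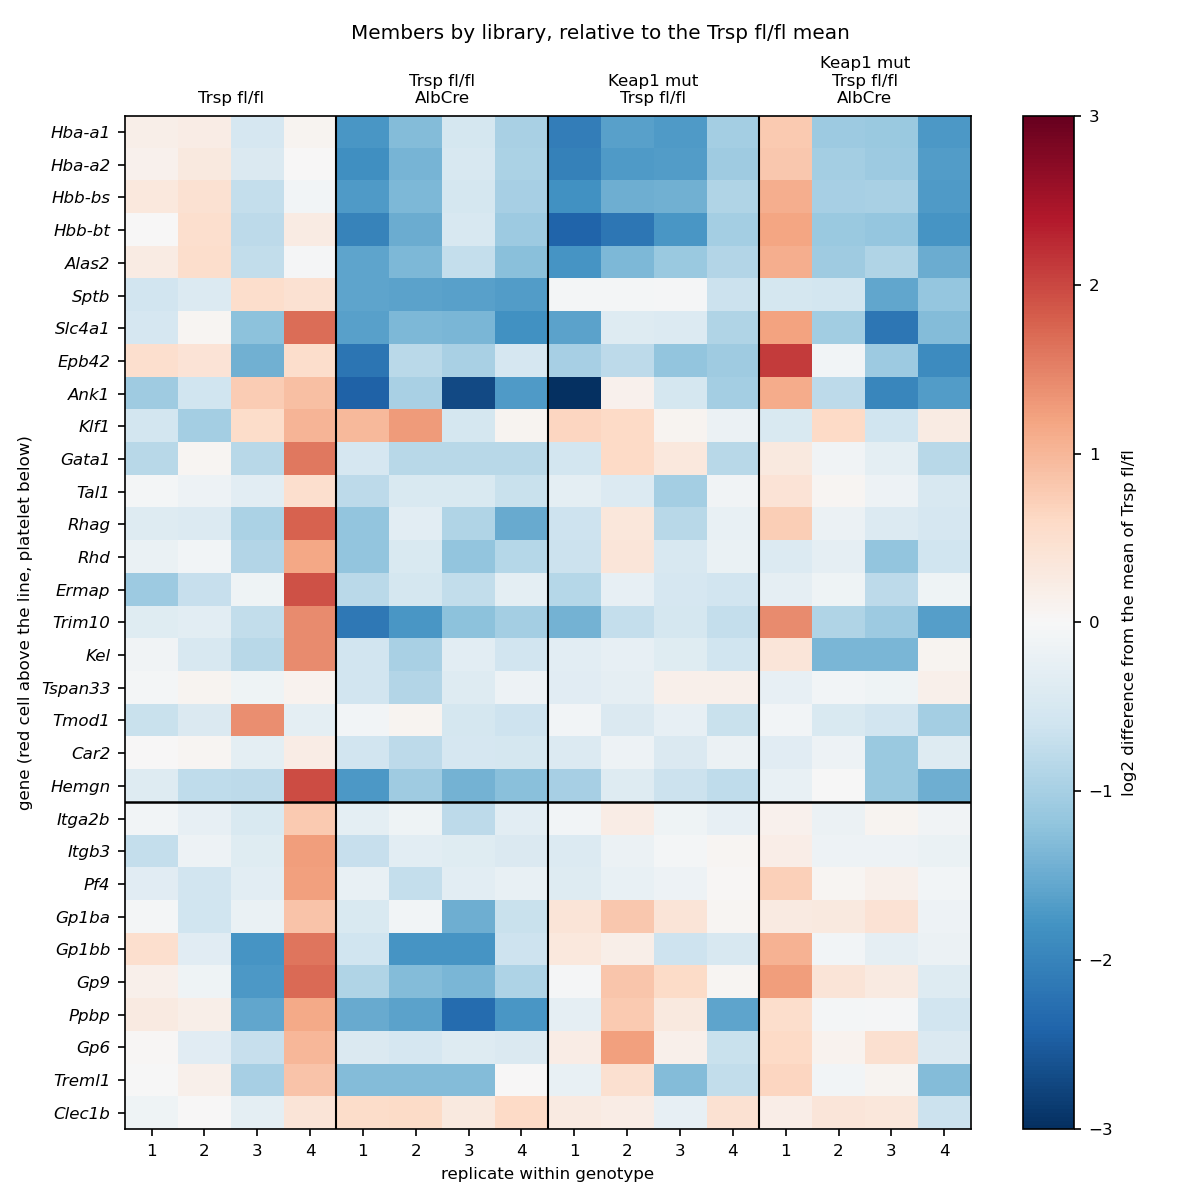
Log2 difference of each of the 31 members (rows; red cell genes above the line, platelet genes below) from the mean of the 4 control livers, in each of the 16 libraries (columns), cut at -3 and 3; Keap1 mut stands for Keap1C226SC613Shomo. The globin genes and *Alas2* (upper 5 rows) are blue in all knockout and KEAP1-mutant libraries and in double-mutant replicates 2 to 4, while control replicate 4 is red in most rows.

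Globin and *Alas2*, the products of maturing erythroblasts and reticulocytes, were highest in the control livers. *Hba-a1* (ENSMUSG00000069919), which encodes alpha globin, had log2 values of 13.97, 14.03, 13.30 and 13.88 in control replicates 1 to 4. In the knockout livers it was 12.04, 12.49, 13.26 and 12.83, and in the KEAP1-mutant livers 11.72, 12.16, 12.10 and 12.78. In the double-mutant livers it was 14.58, 12.70, 12.69 and 12.07. The knockout and KEAP1-mutant livers were thus all below the lowest control, and the double-mutant livers held both the highest value of the 16 and 3 values below every control.

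*Hba-a2* (ENSMUSG00000069917) followed its copy, with means of 13.84 ± 0.32 in control, 12.68 ± 0.58 in knockout, 12.22 ± 0.40 in KEAP1-mutant and 13.09 ± 1.07 in double-mutant livers (SD, n = 4 each). *Hbb-bs* (ENSMUSG00000052305), the main adult beta globin gene, was 14.39, 14.54, 13.35 and 13.99 in control and 12.36, 12.72, 13.55 and 13.08 in knockout livers. It was 12.26, 12.61, 12.63 and 13.18 in KEAP1-mutant and 15.15, 13.08, 13.10 and 12.36 in double-mutant livers. Here knockout replicate 3 reached past control replicate 3, so the control and knockout groups overlapped, while the KEAP1-mutant livers again lay below all controls. *Hbb-bt* (ENSMUSG00000073940) gave the same order of group means, with 11.61, 12.10, 10.81 and 11.84 in control, 9.60, 10.10, 11.12 and 10.49 in knockout, 9.20, 9.43, 9.85 and 10.57 in KEAP1-mutant and 12.78, 10.46, 10.43 and 9.82 in double-mutant livers. Over the 4 genes, globin reads were 0.216% to 0.410% of all reads in the control libraries, 0.0919% to 0.227% in knockout, 0.0820% to 0.155% in KEAP1-mutant and 0.0970% to 0.738% in double-mutant libraries. Without double-mutant replicate 1 the latter range ended at 0.171%.

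*Alas2* (ENSMUSG00000025270) encodes the erythroid form of the enzyme that begins heme synthesis. Its log2 values were 10.32, 10.61, 9.35 and 10.06 in control, 8.49, 8.74, 9.36 and 8.83 in knockout, 8.32, 8.74, 8.97 and 9.20 in KEAP1-mutant and 11.17, 9.03, 9.19 and 8.60 in double-mutant livers. The KEAP1-mutant livers lay below all controls, and knockout replicate 3 stood level with the lowest control. As for the globin genes, control replicate 3 was the lowest control and double-mutant replicate 1 the highest library in all 5. Of the 9 other genes of the heme pathway, which hepatocytes use as well, none was called by limma in any comparison, and none had an unadjusted p under 0.05 in knockout or KEAP1-mutant against control livers, where their median log2 differences were -0.11 and -0.0058. In double-mutant against KEAP1-mutant livers 7 of the 9 were lower, with a median of -0.14, and 3 of them were separate and had an unadjusted p under 0.05. Of all named genes 3.51% were separate and lower, and 7.08% of the genes tested were lower at such a p. Of the 3, *Alas1*, the form of the first enzyme that hepatocytes use, stood at -2.09 (limma adjusted p = 0.119), *Alad* at -0.54 (adjusted p = 0.0841) and *Cpox* at -0.47 (adjusted p = 0.219). In double-mutant against knockout livers 6 were lower, with a median of -0.20, 2 were separate (*Alas1* and *Fech*) and 1, *Fech*, had an unadjusted p under 0.05. There 3.86% of all named genes were separate and lower, and 9.15% of the genes tested were lower at such a p. *Alas1*, *Alad*, *Cpox* and *Fech* were named after their values were seen.

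**Figure D2:**
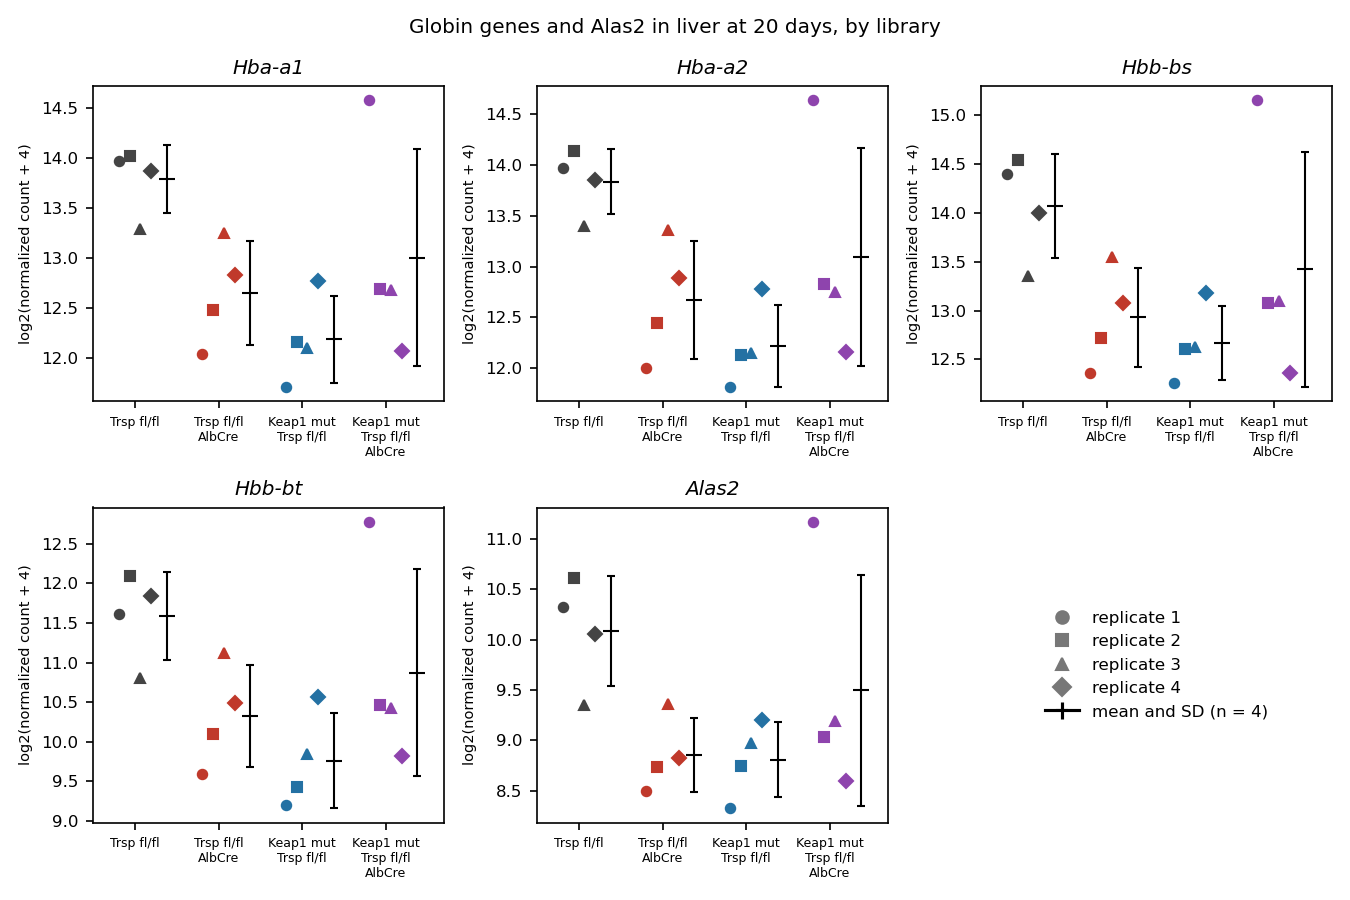
Log2(normalized count + 4) of the 4 globin genes and *Alas2* in each library, by genotype; symbols give the replicate number and the black bar the mean and SD of 4 livers; Keap1 mut stands for Keap1C226SC613Shomo. All 4 KEAP1-mutant livers lie below the lowest control for each of the 5 genes, and double-mutant replicate 1 lies above every other library.

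Genes of the red cell membrane and its skeleton are next. *Sptb* (ENSMUSG00000021061), the beta chain of erythroid spectrin, was 7.18, 7.35, 8.29 and 8.22 in control and 6.19, 6.15, 6.14 and 6.09 in knockout livers. It was 7.70, 7.71, 7.72 and 7.11 in KEAP1-mutant and 7.24, 7.21, 6.20 and 6.60 in double-mutant livers. The 4 knockout livers lay close together and below every liver of the other groups, though double-mutant replicate 3 was only just above them. The KEAP1-mutant livers were within the range of the controls but for replicate 4, which was slightly below it. The order of the libraries differed from that of the globin genes. Control replicate 3, the lowest control for those genes, was the highest control for *Sptb*, at 8.29. Double-mutant replicate 1, the highest library for those genes, stood at 7.24 for *Sptb*, within the control range.

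*Slc4a1*, the band 3 anion exchanger, was 7.34, 7.90, 6.62 and 9.54 in control, 6.23, 6.50, 6.47 and 6.04 in knockout, 6.25, 7.46, 7.44 and 6.94 in KEAP1-mutant and 9.05, 6.80, 5.69 and 6.56 in double-mutant livers. *Ank1*, the ankyrin that ties band 3 to spectrin, had 23, 28, 94 and 79 reads in control, 6, 18, 4 and 13 in knockout, 0, 58, 41 and 24 in KEAP1-mutant and 122, 31, 11 and 13 in double-mutant libraries. For *Slc4a1* the knockout livers lay below all controls and the 2 other groups overlapped with them. For *Ank1* knockout replicate 2 reached past control replicate 1 once depth was taken into account, and the counting error of such few reads is large. *Epb42*, the protein 4.2 of the same complex, had 3 to 23 reads in control and 0 to 9 in knockout livers, 5 to 7 in KEAP1-mutant and 1 to 80 in double-mutant livers, with double-mutant replicate 1 far above the rest. *Tmod1*, which caps the short actin filaments of the skeleton, ranged from 5.11 to 7.17 in control and from 5.15 to 5.85 in knockout livers.

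Among the other red cell members, *Car2*, the main carbonic anhydrase of the red cell, had log2 values of 9.04, 9.07, 8.72 and 9.25 in control and 8.45, 8.24, 8.50 and 8.49 in knockout livers, without overlap. *Trim10*, a gene needed late in erythroid differentiation, had 10 to 44 reads in control and 1 to 7 in knockout livers, and *Tspan33* ranged from 7.34 to 7.57 and from 6.58 to 7.32, again without overlap. Both overlapped with the controls in KEAP1-mutant and double-mutant livers. The blood group and surface genes were low: *Ermap* had 7 to 66 reads in control and 9 to 15 in knockout livers, *Rhag* had 2 to 28 and 0 to 4, *Rhd* 1 to 13 and 0 to 2, and *Kel* 2 to 19 and 1 to 4. For each of these the highest control count was that of replicate 4. *Hemgn*, a nuclear protein of blood precursors, had 5 to 48 reads in control and 1 to 3 in knockout livers.

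The transcription factors did not share one direction. *Tal1*, a factor of the stem cell and erythroid programme, was 5.74, 5.66, 5.50 and 6.32 in control and 5.02, 5.35, 5.34 and 5.15 in knockout livers, so that all knockout livers were lower. *Klf1*, the erythroid factor that activates beta globin, was 4.53, 4.05, 5.61 and 6.10 in control, 6.04, 6.35, 4.54 and 5.15 in knockout, 5.72, 5.67, 5.16 and 4.90 in KEAP1-mutant and 4.62, 5.66, 4.48 and 5.32 in double-mutant livers. The 4 groups overlapped for *Klf1*, and its highest library was knockout replicate 2, followed by control replicate 4. *Gata1* had 0 reads in 2 control, 3 knockout, 1 KEAP1-mutant and 1 double-mutant library and at most 14 in any, so no difference in it was detectable at this depth.

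**Figure D3:**
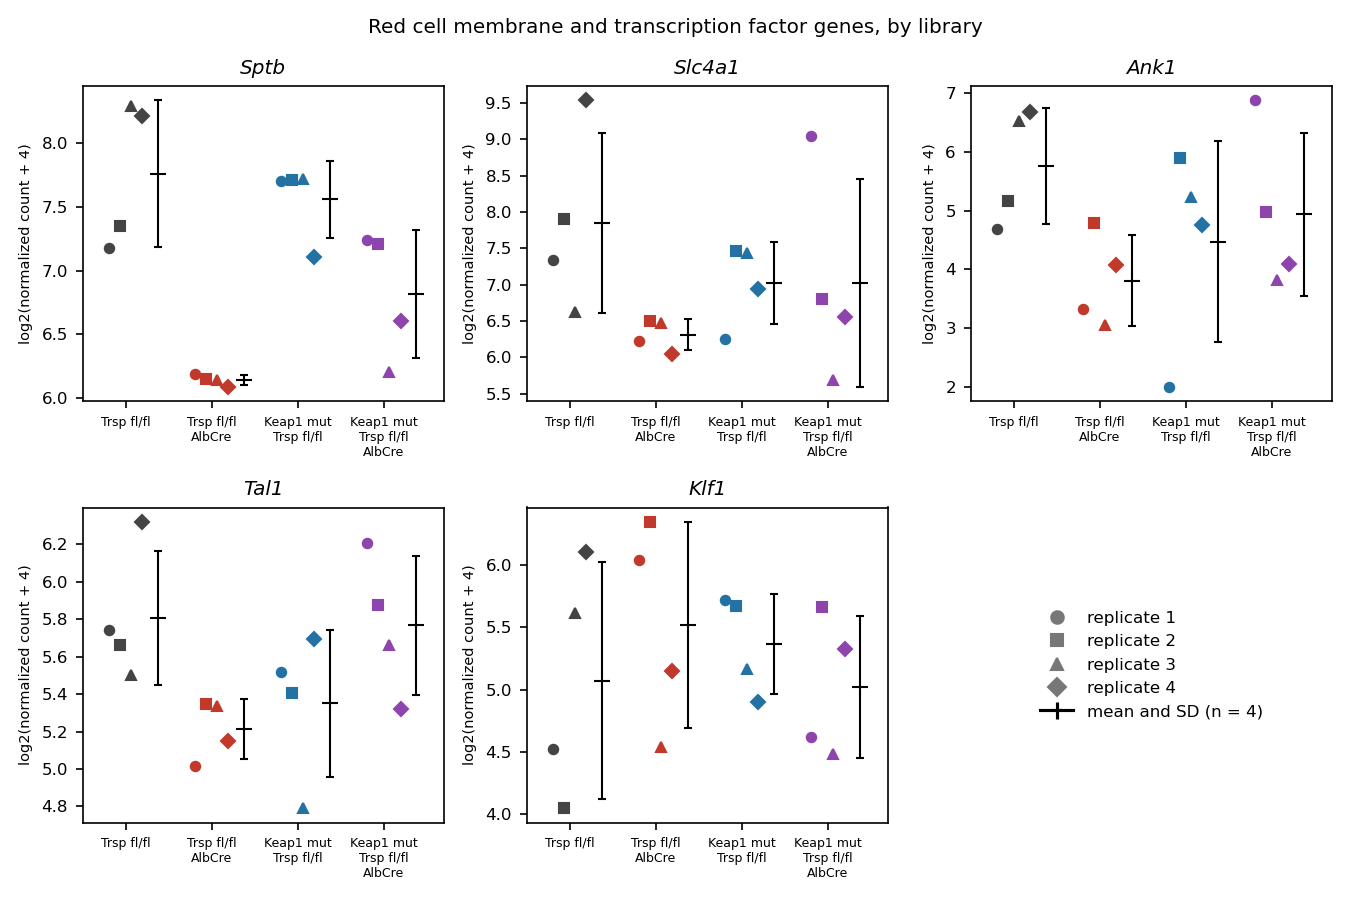
Log2(normalized count + 4) of *Sptb*, *Slc4a1*, *Ank1*, *Tal1* and *Klf1* in each library, by genotype; symbols give the replicate number and the black bar the mean and SD of 4 livers; Keap1 mut stands for Keap1C226SC613Shomo. The knockout livers form a tight group for *Sptb*, between 6.09 and 6.19, below the other libraries, and the groups overlap for *Klf1*.

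The first comparison, knockout against control, asks what the loss of selenoproteins in hepatocytes goes along with. Of the 21 red cell members with a row, 20 had a lower mean in knockout livers, against 52.8% of all named genes, and in 9 of them, or 42.9%, all knockout livers lay below all controls, against 2.51% of all named genes (3.17% lay above). These 9 were *Hba-a1*, *Hba-a2*, *Sptb*, *Slc4a1*, *Tal1*, *Trim10*, *Tspan33*, *Car2* and *Hemgn*. Which cells of the liver their reads came from was not tested. Leaving out a library cannot undo a separation, so these 9 stayed separate without control replicate 4, with a background of 5.23%. The median log2 difference over the 21 went from -1.12 to -0.72 without it. *Klf1* was the only red cell member with a higher mean when all libraries were used, and 2 members had one without that library.

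By limma with Benjamini-Hochberg adjustment over 15781 genes, 1 of the 24 members tested was called, meaning a change of more than 1 on the log2 scale in either direction with an adjusted p under 0.01, with a background of 0.0253% of all genes called lower and 0.19% higher. This was *Sptb*, whose mean fell from 7.76 ± 0.58 to 6.14 ± 0.04 (SD, n = 4 each), though its libraries did not follow the order of the globin genes. The limma estimate was -1.62 on the log2 scale, with a standard error of 0.27 and an adjusted p of 0.0084, lower in 4 of 4 livers, or 32.5% of the control level with the constant included. The call stood close to the threshold: it was lost in 12 of the 16 fits that left out 1 library, and limma voom on the reads called no member (*Sptb* adjusted p = 0.0366). The fits that lost it were those without control replicate 2, 3 or 4, any knockout replicate, KEAP1-mutant replicate 1, 2 or 3, or double-mutant replicate 2 or 4, with adjusted p up to 0.0304 and log2 fold changes between -1.81 and -1.44 over all 16 fits. Unadjusted p under 0.05 and a lower level were found for 12 of the 16 red cell members tested, where 5.41% of all genes had them, and for none with a higher level, against 5.62%. Their largest log2 fold changes beside *Sptb* were those of *Ank1* (-1.95, limma adjusted p = 0.365), *Slc4a1* (-1.54, adjusted p = 0.362) and *Trim10* (-1.54, adjusted p = 0.311), and the 4 globin genes and *Alas2* lay between -1.26 and -1.14, with limma adjusted p from 0.275 to 0.368. *Epb42* was at -1.12, *Car2* at -0.60, *Tal1* at -0.59, *Ermap* at -0.59, *Tspan33* at -0.50 and *Tmod1* at -0.29, and *Klf1* at 0.45. *Trim10* and *Epb42* reached 10 normalized reads in no knockout library and were tested only through the other groups. The filter thus favoured a lower knockout level in both, and the count out of 16 is not free of this. The median log2 fold change was -1.14 for the red cell members tested and -0.01 for all genes tested.

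Markers of the other cells of the liver gave no call between knockout and control livers. None of the 13 Kupffer cell, 9 endothelial, 10 hepatocyte, 11 B cell and 13 granulocyte markers tested was called by limma, and none had an unadjusted p under 0.05, though 11 of the granulocyte markers were lower, with a median of -0.46. Of 11 blood stem and progenitor markers, 9 were lower and none had such a p. The summed normalized count of the endothelial markers was 9671 to 13732 in control and 10612 to 13998 in knockout livers, and that of the Kupffer cell markers 9840 to 19134 and 13222 to 18581. Of 24 cell division genes, which erythroblasts and young hepatocytes both use, 23 were lower in knockout livers and none had an unadjusted p under 0.05; their part in the result was not tested. Of 27 further red cell genes with a row, 21 had a lower mean and 8, or 29.6%, were separate and lower, against 2.51% of all named genes. None of the 20 of them that were tested was called by limma, and 6 were lower at an unadjusted p under 0.05, where 5.41% of all genes were. The counts of these further genes were not repeated without control replicate 4.

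The platelet genes were weakly expressed, and control replicate 4 was the highest control in each. *Ppbp* (ENSMUSG00000029372), the platelet basic protein and a CXC chemokine of the platelet granules, was 6.44, 6.35, 4.62 and 7.31 in control and 4.66, 4.57, 3.88 and 4.44 in knockout livers. It was 5.90, 6.96, 6.46 and 4.59 in KEAP1-mutant and 6.71, 6.11, 6.15 and 5.62 in double-mutant livers. The knockout livers were low, yet control replicate 3 and KEAP1-mutant replicate 4 came down to the same level.

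*Pf4*, platelet factor 4, another granule chemokine, was 5.02, 4.80, 5.05 and 6.60 in control, 5.14, 4.64, 5.04 and 5.15 in knockout, 4.99, 5.16, 5.23 and 5.40 in KEAP1-mutant and 6.09, 5.42, 5.53 and 5.29 in double-mutant livers. The adhesion receptor for von Willebrand factor is built from *Gp1ba*, *Gp1bb* and *Gp9*. *Gp9* had 11, 7, 0 and 31 reads in control, 3, 1, 1 and 3 in knockout, 10, 20, 19 and 10 in KEAP1-mutant and 29, 15, 13 and 6 in double-mutant libraries. *Gp1bb* had 0 to 30 reads in control, 0 to 5 in knockout, 6 to 15 in KEAP1-mutant and 8 to 26 in double-mutant libraries, and *Gp1ba* 3 to 13, 0 to 5, 8 to 16 and 6 to 12. For these 3 subunits the knockout livers were the lowest group, and the control livers were spread widely, with replicate 4 the highest of the series in each.

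The fibrinogen receptor pairs *Itga2b* with *Itgb3*. *Itga2b* ranged from 6.16 to 7.41 in control, 5.85 to 6.50 in knockout, 6.38 to 6.85 in KEAP1-mutant and 6.44 to 6.76 in double-mutant livers. *Itgb3*, which other cells make as well, was 8.30 to 10.26, 8.32 to 8.71, 8.61 to 9.07 and 8.81 to 9.22 in the same order. The collagen receptor *Gp6* had at most 19 reads and *Treml1*, a receptor of platelet granules, at most 12. *Clec1b* (CLEC-2), the podoplanin receptor, is made by Kupffer cells too in mouse liver, and it went the other way, with 6.84 to 7.53 in control and 7.41 to 7.72 in knockout livers.

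Between knockout and control livers, 9 of the 10 platelet members had a lower mean and in none were the groups separate. None was called by limma or by limma voom; *Ppbp* (log2 fold change -1.79, limma adjusted p = 0.184) was lower and *Clec1b* (0.50, adjusted p = 0.407) higher at an unadjusted p under 0.05. *Gp1bb* was at -1.18, *Gp9* at -1.12, *Gp1ba* at -0.67, *Itgb3* at -0.45, *Pf4* at -0.37 and *Itga2b* at -0.38. Of these, *Gp1bb*, *Gp9* and *Gp1ba* reached 10 normalized reads in no knockout library and were tested only through the other groups. The median log2 difference over the 10 was -0.56, and it was -0.25 without control replicate 4, where *Pf4* stood at 0.037.

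**Figure D4:**
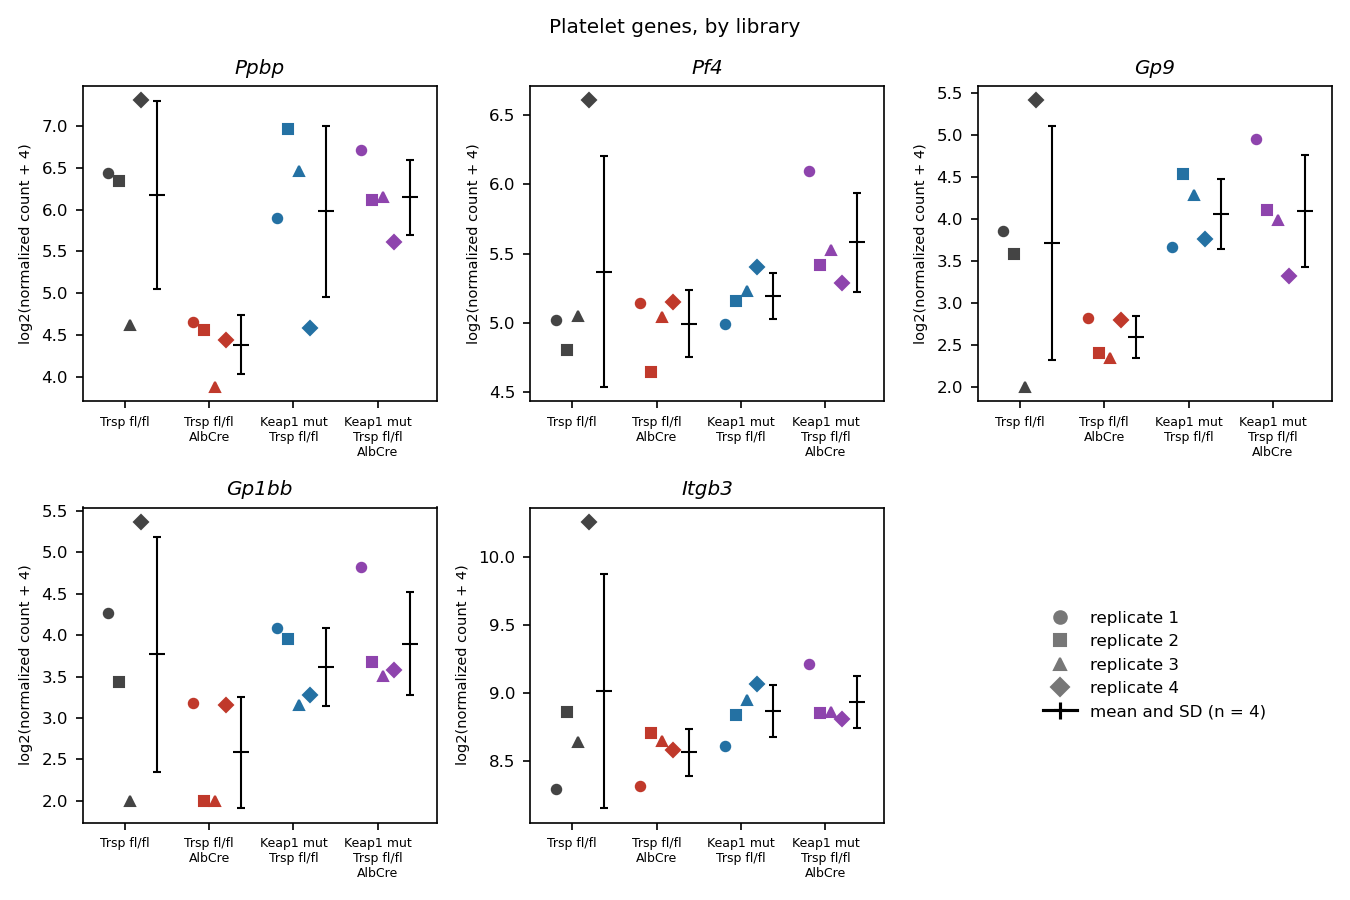
Log2(normalized count + 4) of the platelet genes *Ppbp*, *Pf4*, *Gp9*, *Gp1bb* and *Itgb3* in each library, by genotype; symbols give the replicate number and the black bar the mean and SD of 4 livers; Keap1 mut stands for Keap1C226SC613Shomo; a value of 2 is a library with 0 reads. Control replicate 4 is the highest library for *Pf4*, *Gp9*, *Gp1bb*, *Ppbp* and *Itgb3*, and each double-mutant liver lies above all knockout livers.

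The second comparison, KEAP1-mutant against control livers, asks what the substitutions do where selenoproteins are made. It shares its control samples with the first, so the values of both are set side by side and are not independent. Of the 21 red cell members with a row, 20 had a lower mean, against 51.8% of all named genes. In 5 of them, or 23.8%, all KEAP1-mutant livers lay below all controls, against 2.91% of all genes (2.97% lay above); these were the 4 globin genes and *Alas2*, and none of the 16 other red cell members with a row was separate. Without control replicate 4 these 5 stayed separate, which leaving out a library cannot undo. Of the 16 others 0 became separate, with a background of 6.09%. The log2 fold change was -1.60 for *Hba-a1*, -1.62 for *Hba-a2*, -1.40 for *Hbb-bs*, -1.83 for *Hbb-bt* and -1.28 for *Alas2*, so that *Hba-a1* stood at 32.9% and *Alas2* at 41.3% of the control level. It was -0.20 for *Sptb*, -0.83 for *Slc4a1*, -1.30 for *Ank1*, -0.45 for *Tal1* and 0.29 for *Klf1*. The values of the other red cell members rested largely on control replicate 4. Without it 15 of the 21 red cell members had a lower mean and the median difference over the 21 went from -0.54 to -0.26, that over the 16 others went from -0.37 to -0.048 and that of *Slc4a1* went to -0.26, while that over the globin genes and *Alas2* went from -1.60 to -1.58.

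None of the 24 members was called in this comparison by limma, where 0.00634% of all genes were called in each direction, nor by limma voom. An unadjusted p under 0.05 was found for 5 members, the globin genes and *Alas2*, all lower, where 4.75% of all genes had one, with limma adjusted p from 0.209 to 0.351; over all alternatives the adjusted p of *Hba-a1* ranged from 0.0309 to 0.517. That *Sptb* was called in the first comparison and not in this one does not show that the 2 effects differ. The platelet members had a median log2 fold change of -0.10, with a range from -0.20 to 0.41. Over their 10 rows the median difference was 0.29 without control replicate 4, so its sign rested on that library. Of the 27 further red cell genes with a row, 21 had a lower mean in KEAP1-mutant than in control livers. In 2 of them, or 7.41%, the groups were separate and lower, against 2.91% of all named genes. In 1, or 3.7%, they were separate and higher, which is near the 2.97% of all named genes.

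Markers of the other cells are given beside this comparison. All 11 B cell markers tested were higher in KEAP1-mutant than in control livers, 9 at an unadjusted p under 0.05 where 4.32% of all genes were, and none was called. Their summed normalized count was 112.7 to 166.5 in control and 247.2 to 605.1 in KEAP1-mutant livers. *Rag1*, a defining marker, was at 0 reads in control replicate 3. All 13 granulocyte markers were higher as well, 3 at an unadjusted p under 0.05. All 24 cell division genes were lower, with none at an unadjusted p under 0.05, and the hepatocyte and endothelial markers had no gene at such a p. The part of these in the globin values was not tested.

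**Figure D5:**
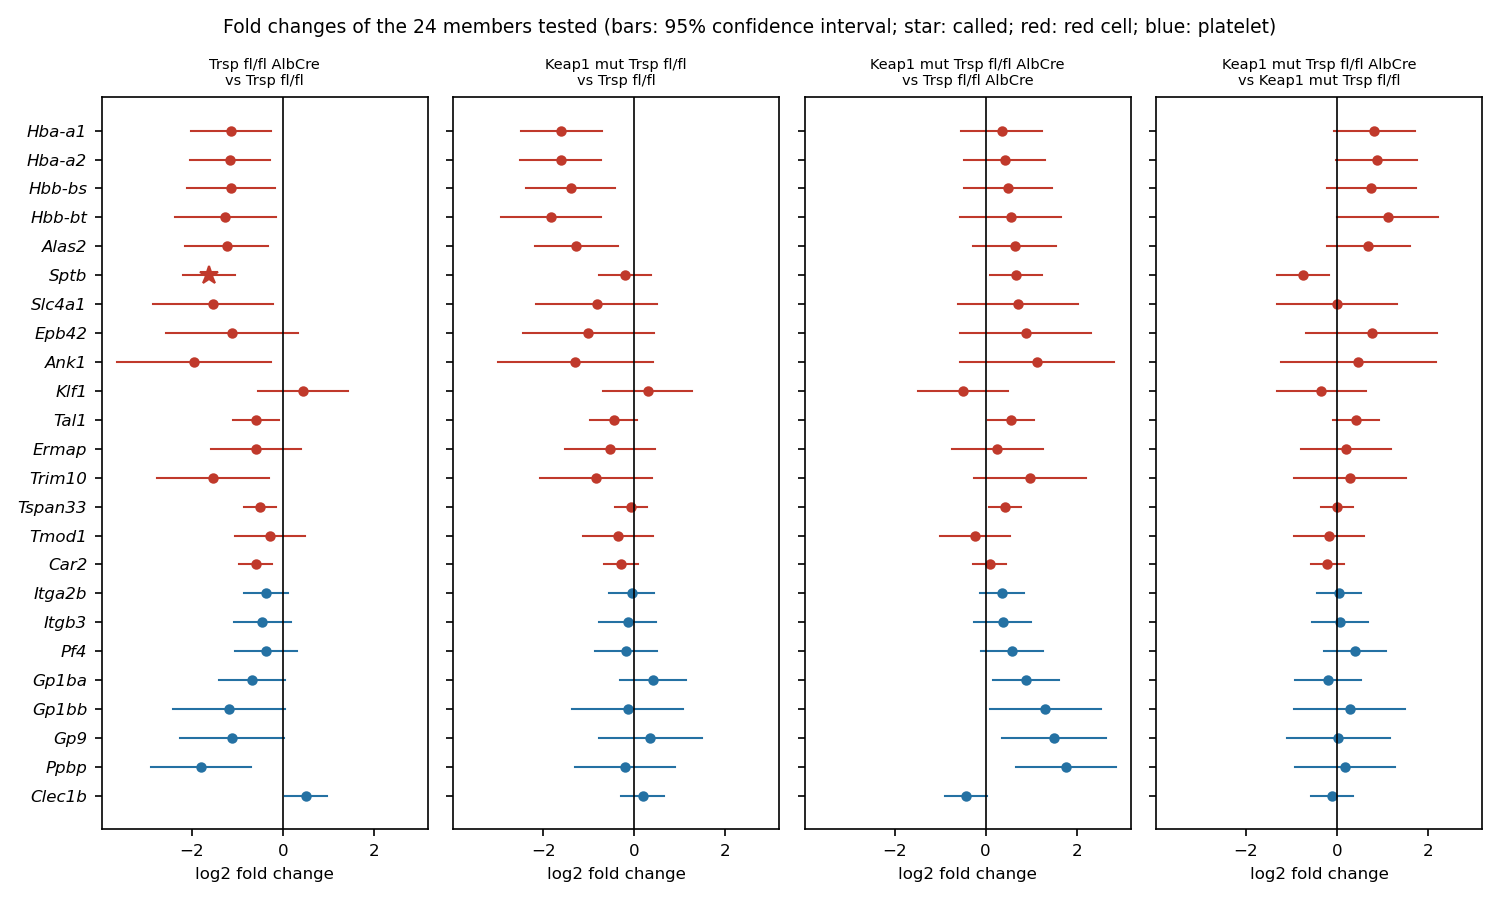
Log2 fold change (points) and 95% confidence interval (bars) from limma for the 24 members tested, in 4 comparisons; red marks red cell and blue platelet genes, and the star a called gene; Keap1 mut stands for Keap1C226SC613Shomo. Only *Sptb* in knockout against control livers is called, most red cell points lie left of 0 in the 2 comparisons with the controls, and most platelet points lie right of 0 in double-mutant against knockout livers.

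Double-mutant against knockout livers compares the KEAP1 genotypes where selenoproteins are missing. The mean was lower in 1 of the 10 platelet and 2 of the 21 red cell members, against 48.6% of all named genes. Without double-mutant replicate 1 it was lower in 1 of the 10 and 7 of the 21, and the median difference went from 0.72 to 0.52 over the platelet and from 0.52 to 0.099 over the red cell members. In 5 of the 10 platelet members, or 50%, all double-mutant livers lay above all knockout livers, against 4.2% of all genes (3.86% lay below): *Ppbp*, *Gp9*, *Gp1bb*, *Pf4* and *Itgb3*. Without double-mutant replicate 1 these 5 stayed separate, which leaving out a library cannot undo, with a background of 5.72%. *Ppbp* had a log2 fold change of 1.76, or 339% of the knockout level with the constant included (limma adjusted p = 0.0901, higher in 4 of 4 livers). The log2 fold change was 1.31 for *Gp1bb*, 0.88 for *Gp1ba*, 0.59 for *Pf4*, 0.37 for *Itgb3* and 0.36 for *Itga2b*, while *Clec1b* was at -0.43. *Gp9* stood at 283% of the knockout level, again with the constant included. Its mean normalized count was 2.09 in knockout and 14.5 in double-mutant livers, on 1 to 3 reads in each knockout library. None was called by limma, where 0.114% of all genes were called higher and 0.456% lower, nor by limma voom. An unadjusted p under 0.05 was found for 4 of the 8 tested, all higher, where 8.45% of all genes had one (9.15% were lower). *Gp1ba*, *Gp1bb* and *Gp9* reached 10 normalized reads in no knockout library and were tested only through the other groups. The filter thus favoured a higher double-mutant level in these genes, and the count out of 8 is not free of this. The adjusted p of *Ppbp* ranged from 0.0236 to 0.240 over the alternatives.

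Of 24 further platelet genes with a row, 20 had a higher mean in the double-mutant livers. In 6, or 25%, the double-mutant livers were all higher, against 4.2% of all named genes. In 1, or 4.17%, they were all lower, which is near the 3.86% of all named genes. This gene was *Rasgrp2*, an activator of platelet integrins named after its values were seen, at -0.59 (limma adjusted p = 0.0218, not called). It was higher in knockout than in control livers, also without overlap, at 0.62 (limma adjusted p = 0.0318, not called). There it was again 1 of the 24, or 4.17%, against 3.17% of all named genes. *Gp5*, a partner of the von Willebrand factor receptor, had 5 to 8 reads in knockout and 7 to 22 in double-mutant livers and overlapped. *Thpo*, the gene for thrombopoietin, which hepatocytes make, ranged from 6.91 to 7.70 and from 7.41 to 7.96 and overlapped between the groups. Granulocyte markers were higher in the same comparison, 12 of 13 at an unadjusted p under 0.05, with a summed normalized count of 588.8 to 881.8 in knockout and 1062 to 31960 in double-mutant livers, and so were 8 of 11 B cell markers. None of these was called, and 8.45% of all genes were higher at such a p. Most of the highest granulocyte sum, that of double-mutant replicate 1, came from *Lcn2*, which is an acute phase gene as well. Of 10 hepatocyte markers 7 were lower, 3 at such a p, where 9.15% of all genes were, and 1 was separate, where 3.86% of all named genes were. *Ms4a3*, a granulocyte precursor marker, was at 0 reads in 2 knockout and 1 double-mutant library. Their part in the platelet values was not tested.

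Of the red cell members only *Sptb* was separate, at 0.67 on the log2 scale (limma adjusted p = 0.208), or 4.76% of the 21 members with a row against 4.2% of all genes, so the count was near the background. *Tal1* was at 0.55 and *Tspan33* at 0.43. The 4 globin genes were at 0.35 to 0.55 and *Alas2* at 0.64, with limma adjusted p from 0.464 to 0.696, and these values rested on 1 library: without double-mutant replicate 1, *Hba-a1* was at -0.17, *Hba-a2* at -0.099, *Hbb-bs* at -0.084 and *Hbb-bt* at -0.087.

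Double-mutant against KEAP1-mutant livers is the effect of the *Trsp* deletion where KEAP1 carries the substitutions. None of the 24 members was called by limma, with 0.101% of all genes called lower and 0.0697% higher, nor by limma voom, and no member was separate in either direction, against 3.51% of all genes lower and 3.78% higher. The mean was lower in 11 of the 31 members, against 49.7% of all named genes. *Sptb* was at -0.75 on the log2 scale (limma adjusted p = 0.23), the only member that was lower at an unadjusted p under 0.05, where 7.08% of all genes were, and *Hbb-bt* the only one that was higher, where 6.52% were. The globin genes and *Alas2* were higher, *Hba-a1* by 0.82, *Hba-a2* by 0.87, *Hbb-bs* by 0.75, *Hbb-bt* by 1.11 and *Alas2* by 0.69, with limma adjusted p from 0.367 to 0.522. The median difference of these 5 was 0.82, and 0.29 without double-mutant replicate 1. For the members as a whole the count turned without that library: 13 of the 21 red cell and 8 of the 10 platelet members then had a lower mean, where with all libraries 8 and 3 had one, and the median difference went from 0.20 to -0.17 and from 0.057 to -0.029.

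Markers of other cells are given for the same groups, and none was called by limma. Of the hepatocyte markers 9 of 10 were lower in double-mutant livers, with a median of -0.36, 2 had an unadjusted p under 0.05 and 3 were separate, and their summed normalized count was 1143100 to 2027000, against 2133900 to 2484600 in KEAP1-mutant livers. Of the Kupffer cell markers 12 of 13 were lower, 3 at such a p and the 1 that was higher also at one. The B cell markers were lower in 10 of 11 and the T cell markers in 6 of 6, each with 1 at such a p, and granulocyte markers were higher in 12 of 13, again with 1. Over all genes, 7.08% were lower and 6.52% higher at such a p, and 3.51% of all named genes were separate and lower. The part of these markers in the values of the members was not tested.

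The difference of the *Trsp* effect between the KEAP1 genotypes was tested as an interaction, in which a positive value means that the deletion lowered a gene less, or raised it more, with the substitutions than without. No member was called by limma, with 0.0317% of all genes called higher and 0.0253% lower, nor by limma voom. An unadjusted p under 0.05 and a positive value were found for 10 of the 16 red cell members tested, where 5.46% of all genes had them, and for 1 of the 8 platelet members; none was negative at such a p, against 5.29%. The members tested include *Epb42*, *Trim10*, *Gp1ba*, *Gp1bb* and *Gp9*, which reached 10 normalized reads in no knockout library. The interaction was 2.38 for *Hbb-bt*, 2.03 for *Hba-a2*, 1.96 for *Hba-a1*, 1.92 for *Alas2*, 1.89 for *Hbb-bs*, 2.42 for *Ank1* and 0.87 for *Sptb*, with limma adjusted p from 0.297 to 0.46, and 1.96 for *Ppbp* (limma adjusted p = 0.397). The median over the red cell members tested was 1.68. It was 1.16 without control replicate 4, 0.98 without double-mutant replicate 1 and 0.69 without both, so the size of this difference rested to a large part on these 2 livers.

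The signals that govern blood formation were looked at beside these results. *Epo*, the hormone of erythroid growth, had 0 to 10 reads in control, 0 to 2 in knockout, 4 to 22 in KEAP1-mutant and 2 to 7 in double-mutant libraries, too few for a test. Its receptor *Epor* ranged from 4.40 to 4.97 in control and from 4.61 to 4.97 in knockout livers, and *Kit*, the stem cell factor receptor, from 7.07 to 7.96 and from 6.92 to 8.42. Neither was called in any comparison, and the groups overlapped in each. Of the 18 genes of this list that were tested, none was called by limma in any comparison. An unadjusted p under 0.05 was found for 4 lower and 3 higher genes in knockout against control livers, where 5.41% and 5.62% of all genes had one. In KEAP1-mutant against control livers 1 gene was higher, where 4.32% of all genes were, so the count was near that share. In double-mutant against KEAP1-mutant livers 2 were lower and 5 higher, where 7.08% and 6.52% of all genes were. In double-mutant against knockout livers 1 was lower and 6 higher, where 9.15% and 8.45% were, so the lower count was not above that share. The smallest adjusted p among them was that of *Igf2*, a fetal growth factor, in the last of these, at 3.58 (limma adjusted p = 0.0336), and *Hamp*, the gene of the iron hormone hepcidin, had the largest difference between double-mutant and KEAP1-mutant livers, 4.43 (adjusted p = 0.164); both were named after their values were seen.

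*Nxpe2* was the only gene of the further red cell list to be called: it was 9.08, 9.06, 8.44 and 9.38 in control and 7.42, 7.17, 7.32 and 7.34 in knockout, 9.68, 9.46, 9.82 and 8.19 in KEAP1-mutant and 7.31, 7.68, 7.02 and 7.56 in double-mutant livers. It was lower wherever *Trsp* was deleted, with a log2 difference of -1.90 between double-mutant and KEAP1-mutant livers (adjusted p = 0.00514 by limma) and of -1.68 between knockout and control livers (adjusted p = 0.0105 by limma, not called), and it did not have the high value in double-mutant replicate 1 that the globin genes had.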

How the data were processed

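RNA of 16 livers was rRNA-depleted, made into strand-specific libraries, quantified with Salmon on a GENCODE mouse annotation and processed on iDEP by the authors. They deposited 1 table of log2 values, which the table itself shows to be log2 of reads over a size factor plus 4: reversing this gave whole reads, within 0.05 of a read, for 100% of low values. Values are thus comparable between libraries for a gene, and the constant of 4 understates the change of weakly expressed genes. Of 18578 rows, 369 without a gene identifier (0.274% to 0.627% of reads) were left out.

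Samples were grouped by their titles. The deposited values were tested with limma 3.58.1 (R 4.3.3; eBayes with trend, a mean for each genotype, no covariate, all 16 libraries, 12 residual degrees of freedom) on the 15781 genes that reached 10 normalized reads in 4 or more libraries. Called means a change of more than 1 on the log2 scale with an adjusted p under 0.01, the study's cut-offs, with Benjamini-Hochberg adjustment over all genes tested. At these cut-offs the study reported more genes than limma called here, both in knockout and in KEAP1-mutant against control livers. Not called therefore refers to limma as run here. Separate means that all libraries of one group lie beyond all of the other. Nothing in the labels ties replicates to litters or days, so p-values measure the spread between these libraries.

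All members are named. Of other lists, called genes and a few lineage genes are named, and *Gpx1*, *Alb*, *Xist* and *Lcn2* were added after their values were seen. The members and lists were chosen with earlier results of these data known. Alternatives were other scalings, constants and filters, the compared groups alone, no trend, limma voom on recovered reads, the replicate number as a block, other thresholds, and each library left out; leaving out the 2 libraries that stood apart together and scaling by endothelial markers were added after seeing the data. Figures were made with Python 3.11.15, pandas 2.3.3 and matplotlib 3.10.9. Sequences are from RefSeq tables of build GRCm38.p6, which is not stated to be the build of the files, and from GENCODE M21 transcripts.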

Additional observations from a re-analysis of the deposited data

Results flagged for a closer look

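Each of the 31 members with a row was examined in each genotype for a library that lay far from the 3 others, 124 groups of 4 in all. Chance marks about 1 in 20, or 6.2 of 124, and 9 were marked. In control replicate 4, *Pf4* was at 6.60, with the 3 others from 4.80 to 5.05, and *Hemgn* was at 5.99, with the others from 3.27 to 3.65. In double-mutant replicate 1, *Itgb3* was at 9.22 and the others from 8.81 to 8.87, and *Gp1bb* was at 4.82 and the others at up to 3.68. *Epb42* was at 2.77, or 3 reads, in control replicate 3, with the others from 4.61 to 4.72. *Sptb* was at 7.11 in KEAP1-mutant replicate 4, with the others from 7.70 to 7.72. *Clec1b* was at 7.41 in knockout replicate 3, with the others from 7.68 to 7.72. *Gata1* was at 2.33 in knockout replicate 1 and *Treml1* at 3.31 in knockout replicate 4, with 0 reads in the 3 others of each, and these rest on 1 and 6 reads.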

How the results depend on the processing

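The count of members called lower in knockout against control livers was 1 (*Sptb*) and went to 0 under quantile normalization, library totals with or without the members' reads, the compared groups alone, eBayes without trend, limma voom and with both libraries that stood apart left out; leaving out single libraries gave 0 to 1. It was 0 too with the replicate block, where *Sptb* had a limma adjusted p of 0.0334. The correlation of same-numbered libraries ranged from -0.315 to 0.31 over 24 pairs, with 4 over 0.1, and that of differently numbered ones from -0.335 to 0.327. These correlations cannot show whether the numbers stand for litters or days. The cause of the losses of the call was not tested, except that leaving out libraries leaves fewer samples. *Sptb* kept its direction in each, with an adjusted p from 0.00334 to 0.0505. The median of the platelet members in double-mutant against knockout livers went from 0.74 to 1.21 with a constant of 0.5 and to 0.37 with the filter in at least 8 libraries, which tests fewer genes. The median interaction of the red cell members, 1.68, was 1.21 with no filter, 0.69 without both libraries, and from 0.98 to 2.003 over fits without 1 library.

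Signs turned in knockout against control livers without control replicate 4 for *Ermap* (0.047; from -0.96 to 0.047 over fits without 1 library) and *Pf4* (0.037; -0.56 to 0.037), and without control replicate 3 for *Tmod1* (-0.51 to 0.18). In KEAP1-mutant against control livers that of *Klf1* turned without control replicate 2 (-0.051 to 0.63). In double-mutant against knockout livers it turned without double-mutant replicate 1 for *Hba-a1* (-0.17 to 0.67), *Hba-a2* (-0.099 to 0.73), *Hbb-bs* (-0.084 to 0.85) and *Hbb-bt* (-0.087 to 0.90). With both libraries left out, *Ermap*, *Pf4* and the 4 globin genes had the same values as without the one of the 2 that enters the comparison. Library totals moved the median of all genes by 0.12 to 0.13 in comparisons with double-mutant livers, and scaling by endothelial markers by -0.11 in KEAP1-mutant against control livers. No other call changed under the block. Under about 20 reads, counting error limits *Gata1*, *Rhag*, *Rhd*, *Kel*, *Gp6*, *Treml1*, *Gp1ba* and *Epo* in all or nearly all libraries. It also limits the knockout values of *Hemgn* (1 to 3 reads), *Trim10* (1 to 7), *Epb42* (0 to 9), *Gp9* (1 to 3) and *Gp1bb* (0 to 5). None of the latter reached 10 normalized reads in a knockout library. *Hemgn* and *Trim10* are among the members separate in knockout against control livers, and *Gp9* and *Gp1bb* in double-mutant against knockout livers.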
